A study of Mus musculus with 4 samples.

Results

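Polycomb repressive complex 2 (PRC2) and an enzyme that opposes it were described in single nuclei of the embryonic mouse cortex through 9 genes. The genes were taken by name and are *Ezh1*, *Ezh2*, *Eed*, *Suz12*, *Jarid2*, *Rbbp4*, *Rbbp7*, *Mtf2* and *Kdm6b*. They are 9 of 56884 entries in the gene table, and each symbol stood on 1 row. Nuclei were taken from medial neocortex of E16.5 embryos. The 2 control libraries carried *Sst-Cre*, which acts in cells that express somatostatin, together with the tdTomato reporter (*Sst-Cre*/tdTomato). The 2 Dnmt1 KO libraries carried the same alleles and, in addition, loxP-flanked *Dnmt1* (*Sst-Cre*/tdTomato/Dnmt1 loxP2). The Cre acts in somatostatin interneurons, so that progenitors and excitatory neurons of these brains are not cells in which *Dnmt1* is meant to be deleted. Each library came from 1 brain by the study's methods, and recombined nuclei were not identified here.

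PRC2 adds methyl groups to lysine 27 of histone H3 (H3K27), a mark of silenced genes. EZH2 or its relative EZH1 is the catalytic subunit, and EED and SUZ12 are required beside it. RBBP4 and RBBP7 bind histones, and JARID2 and MTF2 are alternative partners that help to bring the complex to its sites. KDM6B removes methyl groups from H3K27, as does its X-linked relative KDM6A. In the developing cortex the complex is known for restraining neuronal genes in dividing cells, and *Ezh2* is known as the form of dividing cells and *Ezh1* as the form of resting ones.

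Counts were transcripts (unique molecular identifiers) per nucleus, of which a median of 12274 to 12401 was found in the 3 libraries of batch 1. Control replicate 2, the only library of batch 2, had a median of 21140. After filtering, 5640 and 12064 nuclei of Dnmt1 KO replicates 1 and 2 and 7047 and 4905 nuclei of control replicates 1 and 2 remained. No retained barcode was shared between libraries (0 barcodes). *Dnmt1* itself was at 58.4 and 49.7 CPM (transcripts scaled to a common library total) in interneurons of the Dnmt1 KO libraries and at 72.7 and 54.2 CPM in those of the controls. Nuclei with both *Sst* and *Gad2* transcripts (*Sst*+/Gad2+) held 76.1 and 46.1 CPM in Dnmt1 KO libraries, and 81.2 and 66.5 CPM in controls. These ranges overlapped, and reads outside the deleted exons do not report the deletion.

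Nuclei were gated by marker genes that include none of the 9 genes. Progenitors (radial glia markers such as *Pax6* and *Hes5*) were 3807 nuclei, intermediates (*Eomes*, *Neurog2*) 3521, excitatory neurons (*Tbr1*) 9480 and interneurons (*Gad2*, *Lhx6*) 3427. The remaining nuclei had striatal or other markers or stayed ungated (22.7%). The median progenitor, neuron and interneuron held 5 of the 8 markers of its class. The median intermediate held 2 of its 6 markers and 3 of the 8 neuron markers, so that this class stands between progenitors and neurons. *Pax6* was at 271 CPM in progenitors and 3.41 CPM in neurons, and *Eomes* at 251 CPM in intermediates and 15.2 CPM in progenitors, which describes the gate since both genes were used in it. In sums over the nuclei of a class, fewer transcripts per nucleus and fewer expressing nuclei cannot be told apart. This limit is one of the sums, since the share of nuclei with a transcript was not counted here.

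Transcripts were summed per library and class, which gave 16 sums. Levels are stated as CPM, with the libraries always in the order Dnmt1 KO replicate 1, Dnmt1 KO replicate 2, control replicate 1 and control replicate 2. CPM is a share of the transcripts in a sum, so transcripts per nucleus can order classes and states otherwise. The median nucleus held 11742 transcripts in progenitors, 10484 in intermediates, 16648 in neurons and 10337 in interneurons. Differences are log2 values from edgeR's quasi-likelihood test, with Benjamini-Hochberg adjustment over all genes tested and a threshold of 0.05. Their standard error (SE) was derived as the absolute difference divided by the square root of the test's F value. At low counts it can part from the p of the test. All 9 genes passed the filter on low counts in each comparison. The test scales sums by TMM, a trimmed mean over genes. Scaled by their totals alone, the median gene shifted upward by 0.54 in progenitors against neurons, 0.38 in intermediates against neurons, 0.12 in interneurons against neurons and 0.16 in progenitors against intermediates. A CPM ratio is larger than the stated difference by about this shift, and values on both scales are given for a member where its call or direction in a class comparison differs between them.

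*Ezh2* (ENSMUSG00000029687.17) lies on the minus strand at chr6:47507073-47572331 of GRCm39. Its levels were 516, 498, 465 and 479 CPM in progenitors and 583, 589, 492 and 532 CPM in intermediates. In neurons they were 337, 298, 284 and 283 CPM, and in interneurons 297, 308, 311 and 299 CPM. As CPM, *Ezh2* was thus highest in intermediates in 4 of 4 libraries, and every progenitor or intermediate value lay above every neuron and interneuron value. Per nucleus, *Ezh2* was at 6.36, 6.03, 6.28 and 9.74 transcripts in progenitors. In intermediates *Ezh2* was at 6.19, 6.26, 5.56 and 9.15 per nucleus, so intermediates were not highest in every library on that measure. Its difference from neurons was 0.49 ± 0.05 in intermediates (edgeR adjusted p = 1.78e-06) and 0.17 ± 0.05 in progenitors (edgeR adjusted p = 0.0068). Scaled by totals alone, the same differences were 0.87 and 0.71. Progenitors were below intermediates by -0.32 ± 0.05 (edgeR adjusted p = 9.15e-05). Interneurons and neurons did not differ beyond the threshold, with -0.10 ± 0.05 (edgeR adjusted p = 0.136), and with the other sign, 0.02 ± 0.06, by totals alone (edgeR adjusted p = 0.799).

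*Ezh1* (ENSMUSG00000006920.15; chr11:101081934-101117315, minus strand) showed another order. It was at 21.6, 21.9, 17.6 and 19.9 CPM in progenitors, at 28.4, 26.5, 26.4 and 31.8 CPM in intermediates and at 29.3, 28.6, 25.4 and 28.9 CPM in neurons. Interneurons had 21.9, 27.2, 20.5 and 24.9 CPM. Progenitors were lowest in 4 of 4 libraries, and intermediates and neurons overlapped. Against neurons, *Ezh1* was lower by -1.004 ± 0.08 in progenitors and by -0.36 ± 0.08 in interneurons (edgeR adjusted p = 5.69e-08 and 0.00242). Intermediates were lower by -0.37 ± 0.08 (edgeR adjusted p = 0.000888), but differed by 0.01 when scaled by totals alone, so this direction rests on the scaling. The *Ezh2* to *Ezh1* ratio of transcripts, which no scaling of sums affects, was taken over all nuclei of a class. It was 24.3 ± 1.57 (SD, n = 4 libraries) in progenitors and 19.5 ± 2.39 in intermediates. It was 10.7 ± 0.767 in neurons and 13.02 ± 1.74 in interneurons. Per kilobase of exon, *Ezh2* was at 67.1 and *Ezh1* at 2.19 CPM in progenitors, and at 41.2 and 3.03 CPM in neurons. Per kilobase of the whole gene, since nuclei hold unspliced transcripts, the levels were 7.50 and 0.573 CPM in progenitors and 4.60 and 0.793 CPM in neurons.

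Promoters are shown for *Ezh2*, *Suz12* and *Rbbp7*, which were higher with cell-cycle transcripts in progenitors, and for *Ezh1* as the relative of *Ezh2*. The sequences are RefSeq's, from 250 bases before to 50 after a transcript start, in a table of GRCm38.p6. Each matched 1 place on its own chromosome of GRCm39, the only chromosome searched for it. They lie at chr6:47571915-47572214 (*Ezh2*, minus strand), chr11:79883682-79883981 (*Suz12*, plus strand), chrX:161543118-161543417 (*Rbbp7*, plus strand) and chr11:101117240-101117539 (*Ezh1*, minus strand). Capitals mark the letters of an E2F-type site, searched on both strands as TTTCCCGC, TTTCGCGC, TTTGCCGC and TTTGGCGC. The RefSeq start lies 367 bases downstream of the outermost GENCODE start of *Ezh2*, so that the *Ezh2* window is inside the gene as given above, and 41, 12 and 26 bases downstream for *Suz12*, *Rbbp7* and *Ezh1*. E2F factors are known for activating genes at the entry into S phase.
Ezh2: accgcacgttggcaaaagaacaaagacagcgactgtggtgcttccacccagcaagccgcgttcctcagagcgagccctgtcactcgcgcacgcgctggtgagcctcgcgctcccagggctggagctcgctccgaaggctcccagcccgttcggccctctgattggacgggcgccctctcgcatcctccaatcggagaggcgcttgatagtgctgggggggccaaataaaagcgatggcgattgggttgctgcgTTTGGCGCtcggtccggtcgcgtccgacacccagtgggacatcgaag
Suz12: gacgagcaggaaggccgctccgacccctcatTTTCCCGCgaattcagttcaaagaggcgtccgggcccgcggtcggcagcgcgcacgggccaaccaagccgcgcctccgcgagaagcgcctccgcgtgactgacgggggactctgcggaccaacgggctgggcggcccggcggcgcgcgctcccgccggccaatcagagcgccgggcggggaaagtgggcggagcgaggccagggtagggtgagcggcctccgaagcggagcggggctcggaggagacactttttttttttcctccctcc
Rbbp7: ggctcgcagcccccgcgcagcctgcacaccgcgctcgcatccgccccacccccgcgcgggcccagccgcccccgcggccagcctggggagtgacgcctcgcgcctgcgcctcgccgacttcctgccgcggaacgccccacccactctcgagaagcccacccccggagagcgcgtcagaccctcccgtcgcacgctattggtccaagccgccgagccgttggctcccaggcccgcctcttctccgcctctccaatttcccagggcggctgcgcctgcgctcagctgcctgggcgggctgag
Ezh1: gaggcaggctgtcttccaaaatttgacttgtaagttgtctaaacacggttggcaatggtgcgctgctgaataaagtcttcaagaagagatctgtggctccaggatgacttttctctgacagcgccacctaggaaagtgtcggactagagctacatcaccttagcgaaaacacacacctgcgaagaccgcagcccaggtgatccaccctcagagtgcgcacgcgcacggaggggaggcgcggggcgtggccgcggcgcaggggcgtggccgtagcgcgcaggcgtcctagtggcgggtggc
The *Ezh2* promoter held TTTGGCGC from base 4 after the RefSeq start, and that of *Suz12* held TTTCCCGC from base -219. None of the searched motifs was in the *Rbbp7* or the *Ezh1* window. Of 32851 promoters of this length, 744 (2.265%) held at least 1 such site. Promoters of 8 of the 9 genes were in the table, and 2 of these genes held a site. *Jarid2* and *Mtf2* had more than 1 window each, and the 2.265% counts windows and not genes. A match is a description of letters and not of binding.

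Of the core partners of the enzymes, *Suz12*, *Eed* and *Rbbp7* were highest in progenitors in 4 of 4 libraries. *Suz12* (ENSMUSG00000017548.16; chr11:79883891-79925421, plus strand) encodes the scaffold on which the complex assembles. It was at 228, 198, 172 and 175 CPM in progenitors and at 137, 129, 109 and 127 CPM in intermediates. Neurons held 66.9, 63.9, 57.9 and 58.8 CPM, and interneurons 69.0, 75.0, 78.9 and 67.3 CPM. The order from progenitors through intermediates and interneurons to neurons was free of overlap, with the last pair close, up to 66.9 CPM in neurons and from 67.3 CPM in interneurons. The difference of that pair was 0.12 ± 0.07 and did not pass (edgeR adjusted p = 0.182), but by totals alone it was 0.24 ± 0.08 and passed (edgeR adjusted p = 0.0234). *Suz12* was higher than in neurons by 1.10 ± 0.07 in progenitors and 0.64 ± 0.07 in intermediates (edgeR adjusted p = 6.39e-09 and 2.62e-06).

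*Eed* (ENSMUSG00000030619.11; chr7:89603862-89630217, minus strand) encodes the subunit that reads the finished mark. Its levels were 44.5, 43.7, 46.4 and 50.0 CPM in progenitors, 35.1, 38.0, 39.7 and 44.0 CPM in intermediates, 17.6, 20.8, 18.7 and 20.4 CPM in neurons and 17.9, 24.2, 25.9 and 21.7 CPM in interneurons. Progenitors and intermediates were thus above both neuronal classes in all 4 libraries. The differences from neurons were 0.72 ± 0.07 in progenitors and 0.64 ± 0.07 in intermediates (edgeR adjusted p = 7.56e-07 and 5.22e-06). Progenitors were above intermediates in 4 of 4 libraries, by 0.08 ± 0.07, which did not pass (edgeR adjusted p = 0.365), and by 0.24 ± 0.08 by totals alone, which did (edgeR adjusted p = 0.019). Interneurons differed from neurons by 0.10 ± 0.07 (edgeR adjusted p = 0.302), and by 0.23 ± 0.08 by totals alone (edgeR adjusted p = 0.0388).

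The histone-binding pair diverged. *Rbbp7* (ENSMUSG00000031353.14; chrX:161543356-161562099, plus strand) was at 58.8, 52.1, 54.6 and 60.9 CPM in progenitors and at 27.4, 30.2, 32.8 and 31.8 CPM in intermediates. Neurons held 19.2, 18.3, 17.0 and 19.8 CPM, and interneurons 22.2, 21.8, 23.5 and 20.3 CPM. Progenitor values lay above all others, with a difference from neurons of 1.07 ± 0.07 and from intermediates of 0.73 ± 0.07 (edgeR adjusted p = 1.31e-08 and 1.87e-06). *Rbbp4* (ENSMUSG00000057236.11; chr4:129184867-129229170, minus strand) varied less. Its mean was 69.8 ± 6.95 CPM (SD, n = 4) in progenitors, 71.2 ± 6.18 in intermediates, 53.7 ± 5.10 in neurons and 50.0 ± 4.94 in interneurons. For *Rbbp4* the direction between progenitors and neurons flipped with the scaling, from -0.16 ± 0.05 (edgeR adjusted p = 0.00996) to 0.38 ± 0.06 by totals alone (edgeR adjusted p = 3.05e-05). In intermediates against neurons *Rbbp4* was at 0.03 ± 0.05 (edgeR adjusted p = 0.624) and at 0.41 ± 0.06 by totals alone (edgeR adjusted p = 2.44e-05). Its differences of -0.22 in interneurons against neurons and -0.19 in progenitors against intermediates passed with TMM, but not by totals alone, at -0.10 and -0.03 (edgeR adjusted p = 0.192 and 0.697). *Rbbp7* in interneurons against neurons was at 0.12 ± 0.07 (edgeR adjusted p = 0.22) and at 0.24 ± 0.08 by totals alone (edgeR adjusted p = 0.022). RBBP4 and RBBP7 belong to several other chromatin complexes, so their levels are not specific to PRC2.

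**Figure D1:**
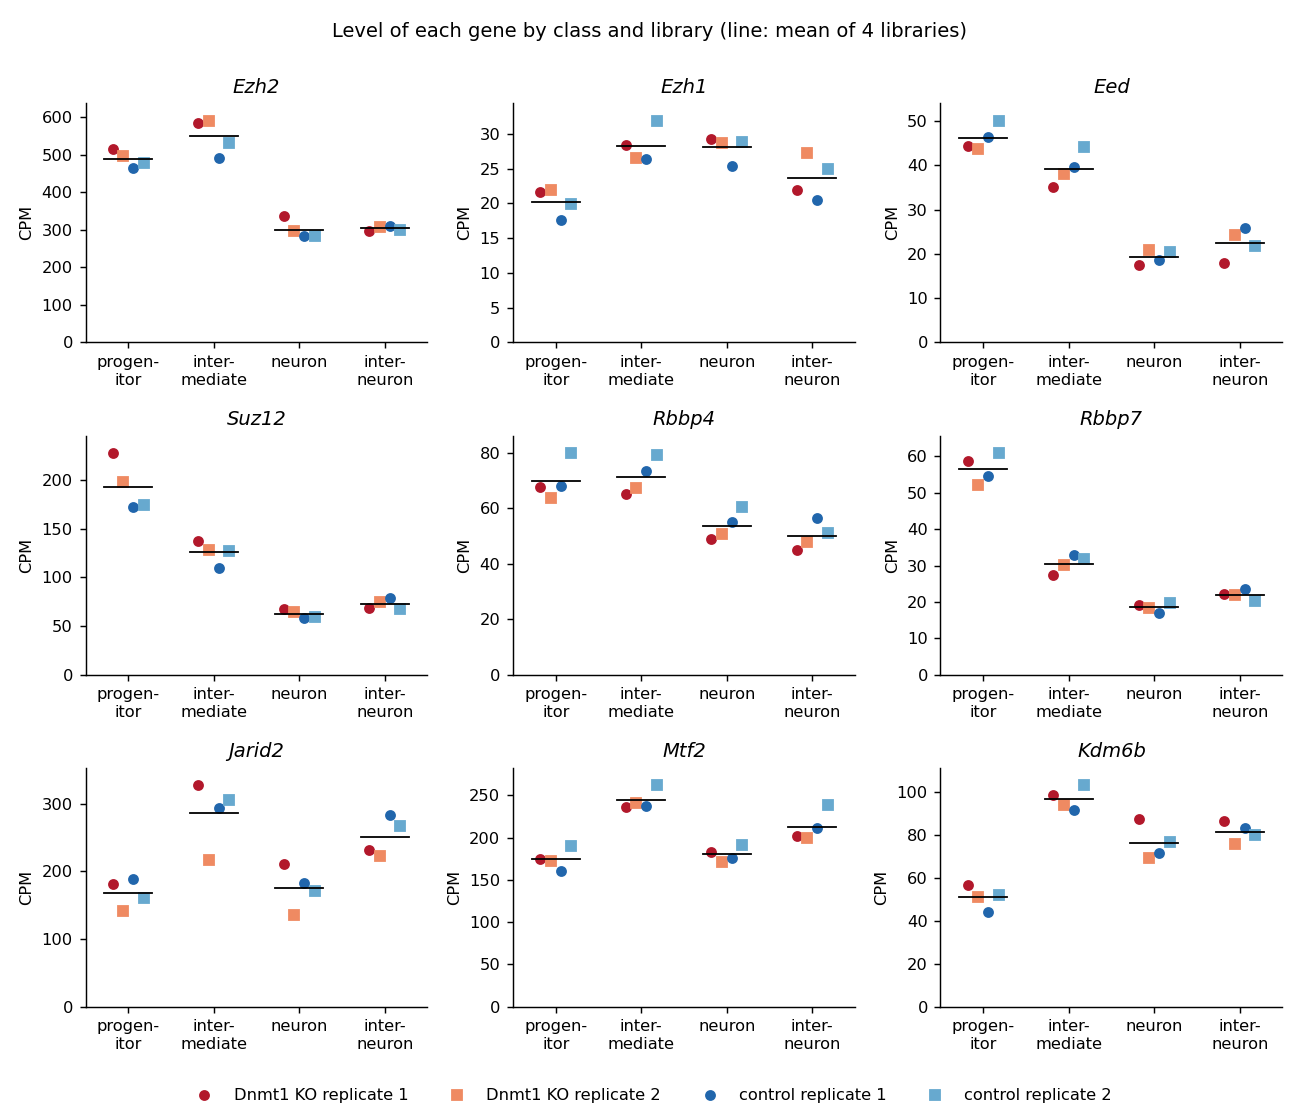
Level of each of the 9 genes in CPM (vertical axis, from 0) in the 4 classes (horizontal axis). Points are single libraries, Dnmt1 KO in red tones and control in blue tones, and black lines are means of 4 libraries. Suz12, Eed and Rbbp7 step down from progenitors to neurons. Ezh2, Jarid2, Mtf2 and Kdm6b have their highest mean CPM in intermediates, Jarid2 in 3 of 4 libraries. Ezh1 and Rbbp4 do so too, each in only 2 of 4 libraries.

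The accessory partners and the demethylase followed neither pattern. *Jarid2* (ENSMUSG00000038518.16; chr13:44882950-45075119, plus strand) encodes a partner of PRC2 related to demethylases but without their activity. Its levels were 181, 142, 188 and 160 CPM in progenitors, 327, 216, 294 and 306 CPM in intermediates, 211, 135, 182 and 170 CPM in neurons and 232, 222, 283 and 266 CPM in interneurons. Dnmt1 KO replicate 2 was lowest in each of these classes. *Jarid2* was higher than in neurons by 0.33 ± 0.08 in intermediates and 0.42 ± 0.08 in interneurons (edgeR adjusted p = 0.00312 and 0.0012). Sorted by counts of marker transcripts instead of scores, intermediates and neurons differed by -0.03 (edgeR adjusted p = 0.83), so the higher level in intermediates rests on how nuclei were sorted. It was lower in progenitors than in intermediates by -0.92 ± 0.08 (edgeR adjusted p = 8.13e-07). Its difference between progenitors and neurons was -0.59 ± 0.08 (edgeR adjusted p = 2.28e-05) and -0.05 ± 0.08 by totals alone, which did not pass (edgeR adjusted p = 0.591).

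*Mtf2* (ENSMUSG00000029267.18; chr5:108213540-108256877, plus strand) encodes a Polycomb-like protein that binds DNA rich in CpG. It was at 175, 172, 160 and 190 CPM in progenitors, 236, 241, 237 and 262 CPM in intermediates, 183, 171, 176 and 192 CPM in neurons and 202, 199, 212 and 239 CPM in interneurons. Intermediates were highest in 4 of 4 libraries and exceeded progenitors, whose difference from them was -0.64 ± 0.04 (edgeR adjusted p = 5.34e-08). Progenitor and neuron values overlapped on the CPM scale, where the difference was -0.05 ± 0.05 (edgeR adjusted p = 0.337), against -0.59 ± 0.04 with TMM scaling (edgeR adjusted p = 3.74e-08). Intermediates against neurons likewise gave 0.44 ± 0.05 by totals alone (edgeR adjusted p = 2.19e-06) and 0.06 ± 0.04 with TMM (edgeR adjusted p = 0.253).

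*Kdm6b* (ENSMUSG00000018476.8; chr11:69289334-69304501, minus strand) encodes the demethylase, and its gene overlaps *Kdm6bos* on the opposite strand. Its levels were 56.6, 51.0, 44.0 and 52.1 CPM in progenitors, 98.4, 93.7, 91.7 and 103 CPM in intermediates, 87.6, 69.3, 71.5 and 76.5 CPM in neurons and 86.4, 75.8, 83.3 and 80.1 CPM in interneurons. As CPM, progenitors were lowest and intermediates highest in 4 of 4 libraries. Per nucleus, neurons held more *Kdm6b* than intermediates in every library, at 1.36, 1.13, 1.21 and 1.98 against 1.04, 0.995, 1.04 and 1.77 transcripts. The difference of progenitors was -1.12 ± 0.06 from neurons and -1.09 ± 0.06 from intermediates (edgeR adjusted p = 1.04e-09 and 6.52e-09), and -0.58 and -0.93 by totals alone. Intermediates differed from neurons by -0.03 ± 0.05 (edgeR adjusted p = 0.661), but by 0.35 ± 0.06 by totals alone (edgeR adjusted p = 0.000208). *Kdm6b* and *Suz12* thus ran in opposite directions between progenitors and neurons on both scales over all nuclei. Each of the 9 genes overlaps at least 1 other annotated gene, and without a stated strand setting such reads cannot be assigned with certainty.

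Counted over the 9 genes, 4 were higher and 5 lower in progenitors than in neurons. Of all 15857 genes tested, 36% were higher and 39.4% lower, so that most genes differed between these classes. By totals alone the split was 5 higher and 2 lower, against 60.5% and 21.2% of all genes. In intermediates against neurons, 5 were higher and 1 lower (29.9% and 31.9% of all genes), and 8 and 0 by totals alone (55.3% and 18%). Interneurons against neurons gave 2 higher, *Jarid2* and *Mtf2*, and 2 lower, *Ezh1* and *Rbbp4* (19.1% and 20.8%), and 5 and 1 by totals alone (28.7% and 14.4%). Progenitors against intermediates gave 2 higher, *Suz12* and *Rbbp7*, and 6 lower (29.2% and 28.9%), and 3 and 5 by totals alone (38.1% and 20.8%). The median over the members was -0.16 in progenitors against neurons and 0.33 in intermediates against neurons, beside -0.04 and -0.01 over all genes tested. By totals alone these medians were 0.38 and 0.71 over the members, beside 0.50 and 0.37 over all genes, so that the sign of the members' median in progenitors rests on the scaling.

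Cell-cycle transcripts moved with several of these levels. Nuclei were assigned to S phase or G2/M when at least 3 of 12 genes of the respective list were detected, with the larger list deciding, and "none" when no gene of either list was detected. These are labels of detected transcripts and not a measured phase. Of the progenitors, 20.3% to 34.2% per library were S phase, 46.4% to 52.1% G2/M and 3.09% to 7.39% none. Of the intermediates, 18.4% to 27.3% were none. Of the neurons, 26.5% to 42.7% were none, and 54.8% to 64.8% held some of these transcripts but met neither rule. Comparisons limited to none thus leave out most neurons. The neurons without such transcripts had a median of 13150 to 21236.5 transcripts, against 15429 to 25124 in those that met neither rule. Nuclei without these transcripts were shallower, with a median of 7348 to 8941.5 transcripts in progenitors against 12599 to 20853 in G2/M progenitors, and only 46, 103, 40 and 16 progenitor nuclei per library fell in this state.

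In progenitors, *Ezh2* was at 291, 279, 242 and 220 CPM in nuclei without cell-cycle transcripts, at 506, 506, 467 and 439 CPM in S phase and at 587, 590, 531 and 542 CPM in G2/M. The 3 states did not overlap. *Ezh2* was higher by 0.84 ± 0.10 in S phase and 1.11 ± 0.10 in G2/M than without such transcripts (edgeR adjusted p = 5.48e-05 and 2.23e-06). *Suz12* rose from 106, 90.8, 80.6 and 98.8 CPM to 221, 184, 168 and 155 CPM in S phase and 253, 232, 197 and 194 CPM in G2/M, by 0.95 ± 0.11 and 1.25 ± 0.11 (edgeR adjusted p = 2.95e-05 and 8.66e-07). These increases exceeded the spread between libraries in both states. *Rbbp7* was at 27.8, 31.3, 16.1 and 15.2 CPM without cell-cycle transcripts, at 58.8, 61.1, 62.9 and 61.4 CPM in S phase and at 65.6, 58.4, 57.2 and 66.2 CPM in G2/M. Its differences were 1.15 ± 0.20 in S phase and 1.2 ± 0.20 in G2/M (edgeR adjusted p = 0.000923 and 0.000397). Only 11, 29, 5 and 2 *Rbbp7* transcripts were counted in the nuclei without cell-cycle transcripts, so its level there is imprecise.

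As shares of transcripts (CPM), *Kdm6b* and *Jarid2* went the other way. *Kdm6b* was at 91.1, 74.6, 83.8 and 114 CPM in progenitors without cell-cycle transcripts, at 53.5, 48.7, 36.8 and 48.7 CPM in S phase and at 48.5, 42.0, 43.7 and 48.0 CPM in G2/M. It was lower by -0.91 ± 0.14 in S phase and -0.93 ± 0.14 in G2/M (edgeR adjusted p = 0.000398 and 0.00019). *Jarid2* was at 215, 184, 210 and 220 CPM without, at 143, 116, 141 and 147 CPM in S phase and at 178, 138, 195 and 160 CPM in G2/M. Its differences were -0.64 ± 0.10 and -0.32 ± 0.10 (edgeR adjusted p = 0.000544 and 0.0308), and it was higher in G2/M than in S phase by 0.32 ± 0.08 (edgeR adjusted p = 0.0174). Per nucleus, *Jarid2* did not fall, with 1.85, 1.65, 1.63 and 1.81 transcripts without and 2.49, 1.92, 3.12 and 3.64 in G2/M. *Kdm6b* overlapped per nucleus, at 0.783, 0.670, 0.650 and 0.938 without and 0.676, 0.586, 0.698 and 1.09 in G2/M. *Ezh1* was at 26.6, 21.2, 19.0 and 23.0 CPM in S phase and 16.6, 18.9, 15.5 and 15.8 CPM in G2/M, without a difference past the threshold. *Eed*, *Rbbp4* and *Mtf2* did not pass in progenitors either. With nuclei sorted by counts of marker transcripts, or without a required lead of the highest score, more of the 9 genes passed in G2/M. Of the 9 genes, 3 were higher and 2 lower in S phase than without (background 11.1% and 9.01% of 12585 genes), 3 and 2 in G2/M (13.7% and 11.5%), and 2, *Suz12* and *Jarid2*, were higher in G2/M than in S phase and 0 lower (7.08% and 7.24%). Of all genes, 2525 passed in S phase and 3162 in G2/M, but 1572 and 1989 without Dnmt1 KO replicate 2. Between G2/M and S phase 1802 of all genes passed, but 1157 without Dnmt1 KO replicate 1, 1065 without Dnmt1 KO replicate 2 and 1138 without control replicate 1. The count of members between G2/M and S phase was 1 without Dnmt1 KO replicate 1, 0 without Dnmt1 KO replicate 2 and 0 without control replicate 1. By totals alone *Rbbp4* was also higher in G2/M progenitors, by 0.47 ± 0.16 (edgeR adjusted p = 0.0405).

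In intermediates the same directions were found for these genes as CPM. Per nucleus, *Jarid2* and *Kdm6b* overlapped there between nuclei without cell-cycle transcripts and G2/M nuclei. *Ezh2* was at 549, 528, 440 and 508 CPM without cell-cycle transcripts and at 837, 876, 690 and 735 CPM in G2/M, a difference of 0.48 ± 0.08 (edgeR adjusted p = 0.000294). *Suz12* was higher in G2/M by 0.93 ± 0.10, *Rbbp7* by 0.93 ± 0.19, *Rbbp4* by 0.54 ± 0.10 and *Eed* by 0.53 ± 0.15 (edgeR adjusted p = 3.81e-06, 0.00123, 0.00091 and 0.0102). *Kdm6b* was lower by -0.67 ± 0.13 and *Jarid2* by -0.44 ± 0.09 (edgeR adjusted p = 0.000843 and 0.00167). That made 5 higher and 2 lower of 9, beside 17.8% and 18.1% of 10122 genes. In S phase 2 were higher, *Suz12* and *Rbbp7*, and 2 lower, *Jarid2* and *Kdm6b* (12.8% and 11.2%). By totals alone, which shifted the median gene upward by 0.17 in S phase and 0.15 in G2/M, *Ezh2* and *Rbbp4* were higher in S phase too, and the split of all calls went from 53.5% to 78.5% higher in S phase and from 49.6% to 67.3% in G2/M. Without Dnmt1 KO replicate 2 or without control replicate 1, 2 of the 9 genes passed in S phase. Between G2/M and S phase 3 were higher, *Ezh2*, *Suz12* and *Jarid2*, and 0 lower (6.64% and 4.92%), and 1 without Dnmt1 KO replicate 2 or without control replicate 2, where 712 and 756 of all genes passed in place of 1170. When nuclei were sorted by counts of marker transcripts, 0 of the 9 genes passed in S-phase intermediates, 4 in G2/M and 1, *Suz12*, between G2/M and S phase, where *Jarid2* was at -0.19 (edgeR adjusted p = 0.755). In these 3 comparisons 174, 703 and 227 of all genes passed, in place of 2428, 3640 and 1170.

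**Figure D2:**
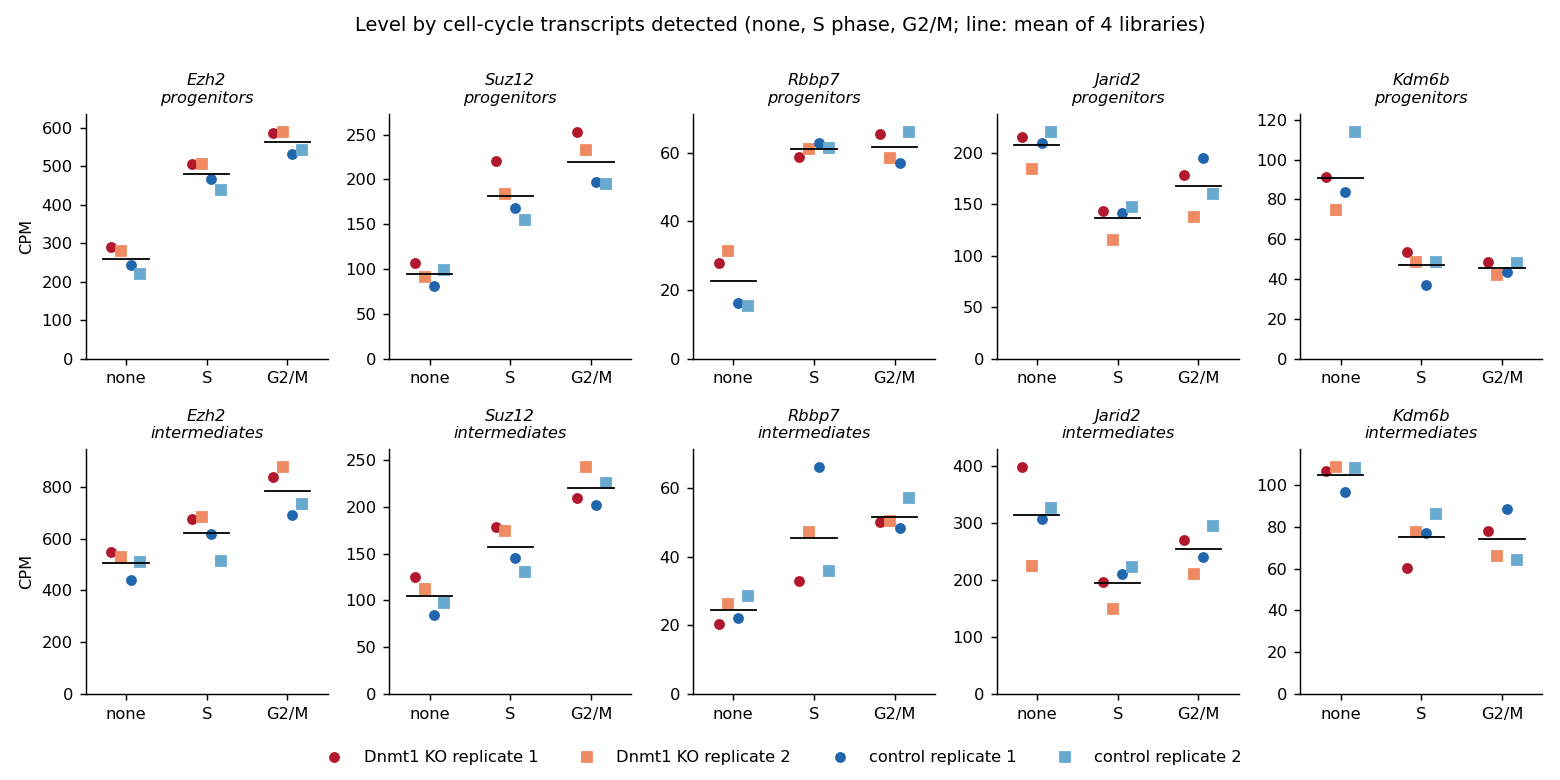
Level in CPM (vertical axis, from 0) of 5 genes in nuclei without cell-cycle transcripts and in S-phase and G2/M nuclei, in progenitors (upper row) and intermediates (lower row). Points are single libraries and lines are means of 4 libraries. Ezh2, Suz12 and Rbbp7 are lowest without cell-cycle transcripts, and Kdm6b is highest there.

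The class comparison was therefore repeated among nuclei without cell-cycle transcripts, a step chosen after the data were seen. In these nuclei, scaling by totals alone shifted the median gene upward by 0.36 in progenitors against neurons and 0.27 in intermediates against neurons, and most calls in progenitors depended on the scaling. *Ezh2* was no longer higher in progenitors than in neurons, with levels of 291, 279, 242 and 220 CPM against 339, 298, 286 and 276 CPM. Its difference was -0.56 ± 0.12 (edgeR adjusted p = 0.00127), and -0.19 ± 0.11 by totals alone, which did not pass (edgeR adjusted p = 0.177). These progenitors held 115, 258, 75 and 29 *Ezh2* transcripts and only 7, 28, 6 and 7 of *Ezh1*. The neurons held 3423, 5424, 2554 and 3628 of *Ezh2* and 289, 500, 231 and 383 of *Ezh1*. The higher *Ezh2* to *Ezh1* ratio of progenitors is thus not shown for nuclei without cell-cycle transcripts. *Mtf2* was at -0.58 ± 0.15 (edgeR adjusted p = 0.00618) and at -0.22 ± 0.14 by totals alone (edgeR adjusted p = 0.225). *Suz12*, at 106, 90.8, 80.6 and 98.8 CPM against 69.1, 61.9, 54.5 and 55.6 CPM, did not overlap between these classes. Its difference was 0.26 ± 0.11 (edgeR adjusted p = 0.0849), but 0.62 ± 0.12 by totals alone, which passed (edgeR adjusted p = 0.000702). *Eed* was at 22.8, 28.1, 22.6 and 76.0 CPM against 18.5, 20.7, 19.5 and 21.6 CPM, higher in 4 of 4 libraries, with control replicate 2, the library with the fewest such nuclei, far above the others. The differences of *Eed* and *Rbbp7* were 0.25 ± 0.23 and 0.12 ± 0.24 (edgeR adjusted p = 0.45 and 0.758), and 0.61 ± 0.25 and 0.47 ± 0.24 by totals alone (edgeR adjusted p = 0.0594 and 0.13). *Kdm6b* was at 91.1, 74.6, 83.8 and 114 CPM against 86.4, 68.8, 74.8 and 79.1 CPM, above neurons in 4 of 4 libraries. Its difference changed sign with the scaling, from -0.20 ± 0.12 to 0.17 ± 0.13 by totals alone (edgeR adjusted p = 0.212 and 0.338), and so did that of *Jarid2*, from -0.07 ± 0.13 to 0.29 ± 0.13 (edgeR adjusted p = 0.727 and 0.0928). Of the 9 genes, 0 were higher and 2 lower in progenitors (19.3% and 20.1% of all genes in these nuclei, by edgeR), and 1 and 0 by totals alone (31.8% and 11.5%). A lost call was not always a smaller difference. *Rbbp4*, at -0.16 over all nuclei, was at -0.39 ± 0.16 here without passing (edgeR adjusted p = 0.0605) and at -0.03 ± 0.15 by totals alone, whereas *Ezh1* was at -0.38 ± 0.22 (edgeR adjusted p = 0.204) and -0.02 ± 0.24.

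Intermediates without cell-cycle transcripts still exceeded neurons in *Ezh2*, at 549, 528, 440 and 508 CPM, by 0.49 ± 0.11 (edgeR adjusted p = 0.00161). *Suz12* was higher by 0.52 ± 0.09, *Eed* by 0.51 ± 0.15 and *Jarid2* by 0.59 ± 0.12 (edgeR adjusted p = 0.000148, 0.0106 and 0.000813). This gave 4 higher and 0 lower (19.6% and 21.2%). By totals alone these 4 passed too, together with *Kdm6b*, at 0.45 ± 0.10 after 0.18 ± 0.09 (edgeR adjusted p = 0.00115 and 0.12), and *Mtf2*, at 0.45 ± 0.12 after 0.18 ± 0.13 (edgeR adjusted p = 0.00595 and 0.3), which made 6 and 0 (37.2% and 14.1%). *Rbbp4* changed sign without passing, from -0.03 to 0.24 (edgeR adjusted p = 0.846 and 0.0796). *Ezh1* and *Rbbp7* did not pass in these nuclei, at -0.28 ± 0.15 and 0.10 ± 0.16 (edgeR adjusted p = 0.141 and 0.668). Interneurons gave 1 higher, *Jarid2* with 0.66 ± 0.12 (edgeR adjusted p = 0.000442), and 0 lower (12.8% and 15.4%), and by totals alone *Jarid2* was again the 1 gene that passed (15.6% and 13.6%). *Ezh1* and *Rbbp4*, which were lower in interneurons over all nuclei, did not pass, but their differences of -0.39 ± 0.14 and -0.30 ± 0.11 (edgeR adjusted p = 0.0563 and 0.0569) were no smaller than the -0.36 and -0.22 over all nuclei. By totals alone they were -0.32 ± 0.15 and -0.24 ± 0.11 (edgeR adjusted p = 0.128 and 0.119). *Mtf2* was at 0.18 ± 0.13 (edgeR adjusted p = 0.369). *Ezh2* differed by -0.13 there and by -0.07 by totals alone. Progenitors against intermediates gave 0 higher and 4 lower (13.3% and 11%). Of these 4, *Ezh2* differed by -1.05 ± 0.12, *Mtf2* by -0.77 ± 0.15, *Jarid2* by -0.66 ± 0.13 and *Kdm6b* by -0.38 ± 0.12 (edgeR adjusted p = 9.79e-06, 0.00159, 0.00153 and 0.0299). By totals alone *Kdm6b* did not pass, at -0.29 ± 0.13 (edgeR adjusted p = 0.134), which left 0 higher and 3 lower (14.9% and 8.64%). *Suz12*, which was higher in progenitors than in intermediates over all nuclei, was at -0.26 ± 0.11 here and at -0.18 ± 0.12 by totals alone (edgeR adjusted p = 0.11 and 0.355). *Rbbp4*, *Ezh1* and *Rbbp7* did not pass either, at -0.36 ± 0.16, -0.10 ± 0.24 and 0.02 ± 0.25 (edgeR adjusted p = 0.133, 0.869 and 0.975). The part of depth per nucleus in these contrasts was not tested.

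**Figure D3:**
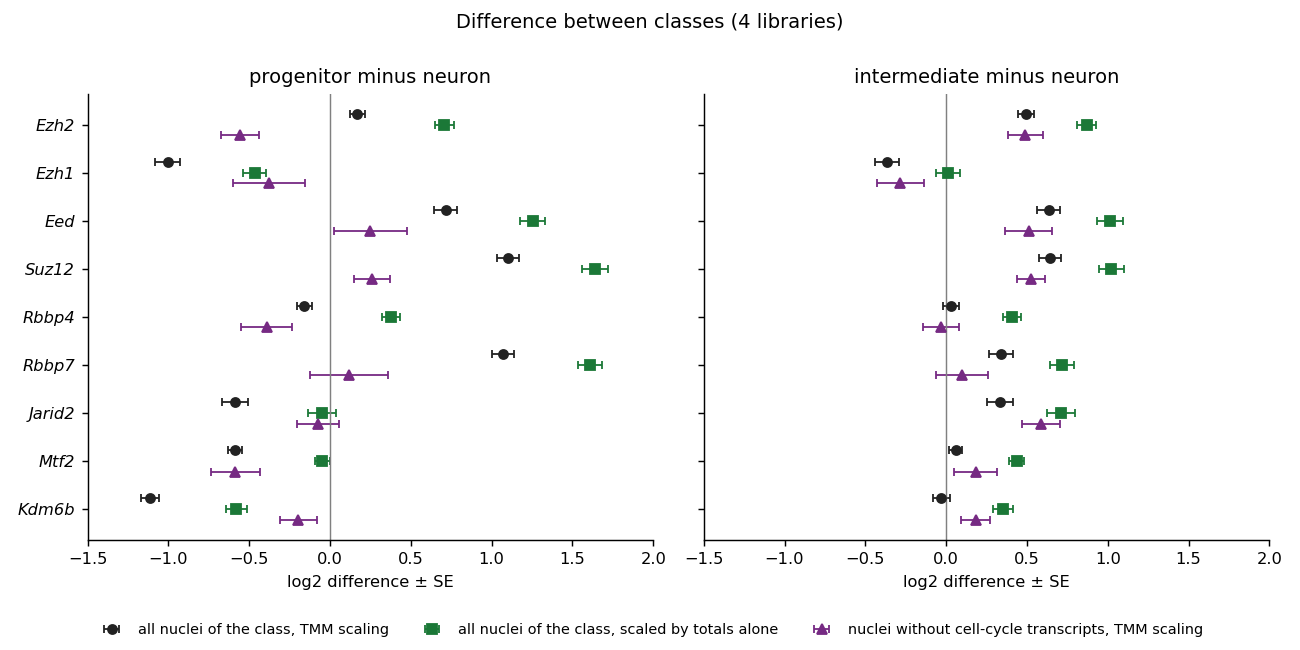
Log2 differences with SE (horizontal axis) of the 9 genes for progenitors minus neurons (left) and intermediates minus neurons (right), over 4 libraries. Circles use all nuclei of a class with TMM scaling, squares the same nuclei scaled by totals alone, and triangles nuclei without cell-cycle transcripts with TMM scaling. Ezh2 lies to the right of 0 in progenitors for all nuclei and to the left, at -0.56, for nuclei without cell-cycle transcripts.

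The X-linked demethylase gene *Kdm6a* (chrX:18028776-18146877) was at 300, 192, 269 and 168 CPM in progenitors, 316, 197, 285 and 167 CPM in intermediates, 147, 123, 136 and 84.4 CPM in neurons and 152, 115, 169 and 89.2 CPM in interneurons. In every class both replicates 1 lay above both replicates 2. *Uty*, its Y-linked counterpart (chrY:1096855-1245759), was at 233 and 215 CPM in progenitors of replicates 2 and at 1.42 and 2.01 CPM in those of replicates 1. *Xist*, which is transcribed from an inactive X chromosome, was at 1593 and 1430 CPM in progenitors of replicates 1 and at 4.21 and 0.285 CPM in those of replicates 2. Each genotype thus held 1 library of each kind, and the genotypes were balanced in this respect. Within libraries, *Kdm6a* was higher than in neurons by 0.38 ± 0.07 in progenitors and 0.58 ± 0.07 in intermediates (edgeR adjusted p = 0.00028 and 9.89e-06), and by 0.91 and 0.96 by totals alone. *Kdm6a* and *Kdm6b* therefore differed in opposite directions between progenitors and neurons on both scales over all nuclei.

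**Figure D4:**
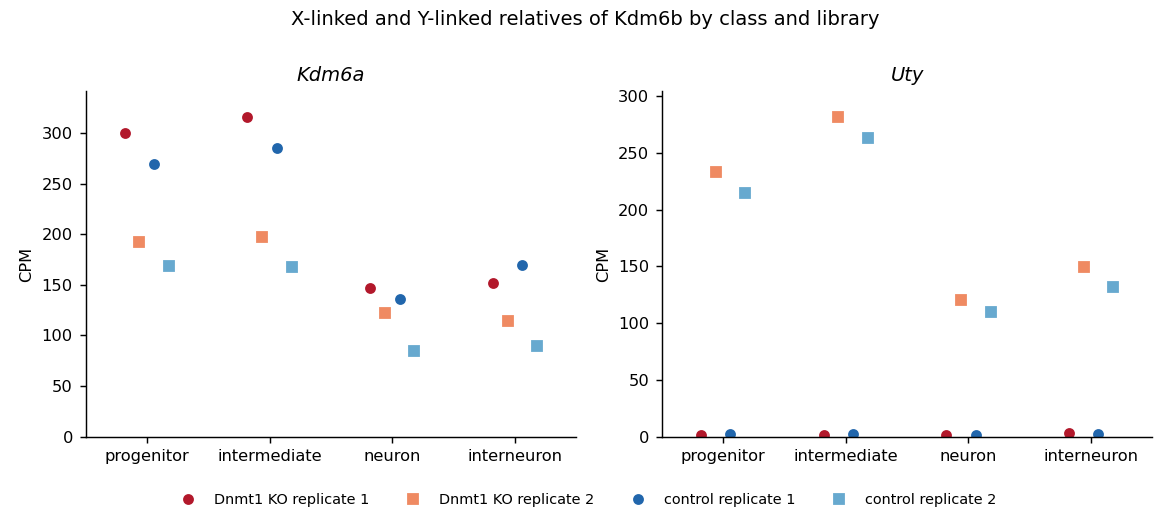
Level in CPM (vertical axis, from 0) of Kdm6a and Uty by class, with 1 point for each library. Replicates 1 of both genotypes are higher in Kdm6a and near 0 in Uty, and replicates 2 are lower in Kdm6a and carry Uty.

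Other Polycomb genes were taken from lists. Of 7 further PRC2 accessory genes, 6 were tested between progenitors and neurons, of which 2 were higher and 2 lower. PRC1, the complex that binds the PRC2 mark or ubiquitinates histone H2A, was represented by 21 genes, of which 6 were higher and 10 lower in progenitors. Set beside 36% of all genes higher and 39.4% lower, these are 33.3% and 33.3% of the accessory and 28.6% and 47.6% of the PRC1 genes. By totals alone the counts became 3 and 1 of the accessory (50% and 16.7%) and 11 and 6 of the PRC1 genes (52.4% and 28.6%). Of all genes, 60.5% were then higher and 21.2% lower. The prevailing direction of the PRC1 list thus rests on the scaling, as does that of all genes. *Phf19*, a Polycomb-like partner of PRC2, was at 13.2 to 26.5 CPM in progenitors and 0.164 to 0.228 CPM in neurons. Only 35 of its transcripts fell in neurons over the 4 libraries, against 1055 in progenitors, so that it passed the low-count filter through progenitors, and it was not tested among nuclei without cell-cycle transcripts. *Pcgf5*, a RING-finger subunit of a PRC1 variant, was at 186 to 255 CPM against 3.28 to 3.59 CPM (5.36 ± 0.18, edgeR adjusted p = 5.22e-11). *Aebp2*, a zinc-finger partner of PRC2, was higher by 1.27 ± 0.05 (edgeR adjusted p = 8.75e-11). The largest negative ones were *Auts2*, which joins PRC1 variants and is linked to neural development, by -1.44 ± 0.09, *Bmi1*, a RING-finger subunit of PRC1, by -1.08 ± 0.08, and *Phc2*, a subunit that polymerizes, by -0.95 ± 0.07 (edgeR adjusted p = 5.25e-09, 6.65e-08 and 4.29e-08). By totals alone the last 3 were smaller, at -0.90, -0.54 and -0.41, and kept their direction. In nuclei without cell-cycle transcripts *Pcgf5* was at 5.07 and *Aebp2* at 0.69, and both passed on either scale. *Auts2* passed on either scale too, at -1.28, whereas *Bmi1*, at -0.83, did not pass by totals alone, at -0.47 (edgeR adjusted p = 0.204). *Phc2* did not pass there on either scale, at -0.35 and 0.02 (edgeR adjusted p = 0.0762 and 0.95). In intermediates against neurons, 2 of the 6 accessory genes were higher and 3 lower. Of the 21 PRC1 genes, 5 were higher and 8 lower, beside 29.9% and 31.9% of all genes. By totals alone 3 and 0 of the accessory and 13 and 1 of the PRC1 genes passed, beside 55.3% and 18% of all genes. *Pcgf5*, which the gate did not use, fell by a larger factor between progenitors and neurons than any of the 9 genes. It was picked for the size of this same difference, unlike the 9 genes, so this comparison is only a description. Of 17 genes that PRC2 is known to keep silent in the forebrain (Hox genes, *Cdkn2a*, *Gata4*, *Gata6* and T), 0 passed the low-count filter in the comparisons of classes, states or genotypes within a class. *Gata4* alone passed it, in the genotype comparison of all nuclei, with 0.23 ± 0.43 (edgeR adjusted p = 0.896). Their transcripts in all retained nuclei numbered from 0 to 68 per gene, and differences in the other 16 genes were not detectable at this depth.

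For the genes whose pattern over the 16 sums was most like that of a member, Pearson's r of log2(CPM + 1) was taken over 6251 genes with a mean of at least 20 CPM. The sums share 4 libraries and the depth and composition of 4 classes, so these values only describe the order of classes. Most like *Ezh2* were *Gm36963* (r = 0.988), *Ttyh2*, *Rsf1*, *Kdm3a* and *Gm37606* (r = 0.985). Most like *Ezh1* were *Arfgef3* (r = 0.897), *Fam168a*, *Golm2*, *Rnf138* and *Atp6v0a1* (r = 0.870). Nearest to *Kdm6b* were *Cyb5r4* (r = 0.976), *Ttc3*, *Chp1*, *H13* and *Zfp157* (r = 0.951). *Kdm3a*, a demethylase of H3K9, was at 158, 187, 94.3 and 101 CPM on average in progenitors, intermediates, neurons and interneurons. The nearest gene to *Ezh1* correlated less closely than the nearest ones to *Ezh2* and *Kdm6b*, at a level of 20.3 to 28.3 CPM for *Ezh1*.

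Whether loss of *Dnmt1* in the somatostatin lineage went with a change of the Polycomb genes, in that lineage or in the cells around it, was asked by comparing 2 Dnmt1 KO with 2 control libraries in each class. In progenitors *Suz12* was at 228 and 198 CPM in the Dnmt1 KO libraries and 172 and 175 CPM in the controls. The groups did not overlap, and the difference was 0.33 ± 0.10 at an unadjusted p of 0.0193 (edgeR adjusted p = 0.711). In intermediates, neurons and interneurons the difference of *Suz12* was 0.20 ± 0.11, 0.20 ± 0.09 and 0.04 ± 0.12. *Ezh2* differed by 0.14 ± 0.10 in progenitors, 0.23 ± 0.11 in intermediates, 0.19 ± 0.11 in neurons and 0.05 ± 0.10 in interneurons. None of these passed, with edgeR adjusted p from 0.711 to 0.981. *Jarid2* was lower in Dnmt1 KO than in control interneurons in every library, at 232 and 222 CPM against 283 and 266 CPM, and overlapped between genotypes in the other classes. *Mtf2* and *Rbbp4* were likewise lower without overlap in interneurons, where 36.7% of all genes tested did not overlap in either direction. None of the 9 genes passed in interneurons, with the smallest edgeR adjusted p at 0.913.

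Over the 9 genes, 0 were called between genotypes in progenitors, intermediates, neurons, interneurons, all nuclei or *Sst*+/Gad2+ nuclei. At an unadjusted p under 0.05 there was 1, *Suz12* in progenitors, and DESeq2 called 0. Of all genes, edgeR called 0% in each population, with 213 to 1612 genes at an unadjusted p under 0.05 and 0 to 205 called by DESeq2. The log2 differences of the 9 genes ranged from -0.13 to 0.33 in progenitors, -0.17 to 0.23 in intermediates, -0.18 to 0.20 in neurons, -0.21 to 0.19 in interneurons and -0.44 to 0.40 in *Sst*+/Gad2+ nuclei, the smallest population. Between interneurons and neurons, or interneurons and progenitors, the genotype difference itself differed for 0 of the 9 genes (0% of all genes). A p above the threshold does not show that levels were equal.

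In progenitors, 5 of the 9 genes had Dnmt1 KO and control values without overlap, *Ezh1*, *Ezh2* and *Suz12* being higher in Dnmt1 KO and *Eed* and *Rbbp4* lower. There were 5 such genes in intermediates, 3 in neurons and 3 in interneurons. The same held for 39.4%, 39.5%, 37.6% and 36.7% of all genes tested in these classes. *Rbbp4* was lower in both Dnmt1 KO libraries in each class, at 67.7 and 63.6 CPM against 68.1 and 79.8 CPM in progenitors and at 48.7 and 50.8 CPM against 54.9 and 60.3 CPM in neurons. The classes come from the same libraries and do not replicate each other, and the share of all genes with this joint pattern was not counted. *Rbbp4* overlapped between genotypes in nuclei with striatal or other markers. In nuclei without cell-cycle transcripts its values still did not overlap in neurons. They overlapped in intermediates, in interneurons and in progenitors, the last at 68.3 and 45.4 CPM against 51.6 and 38.0 CPM. Among *Sst*+/Gad2+ nuclei, of which there were 16, 136, 40 and 27 per library, *Ezh2* was at 292, 280, 200 and 266 CPM. *Suz12* was at 88.8, 73.5, 37.6 and 88.1 CPM there, and control replicate 1 was the lowest for both genes. *Mtf2* was at 144, 170, 198 and 253 CPM, *Jarid2* at 216, 171, 251 and 223 CPM and *Rbbp4* at 29.6, 52.6, 55.8 and 57.8 CPM. These 3 genes were lower in Dnmt1 KO without overlap, and *Ezh1* and *Ezh2* higher, which made 5 of 9 beside 33.5% of all genes tested in these nuclei. Control replicate 2 is also the only library of batch 2, so that genotypes cannot be compared within batch 2.

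**Figure D5:**
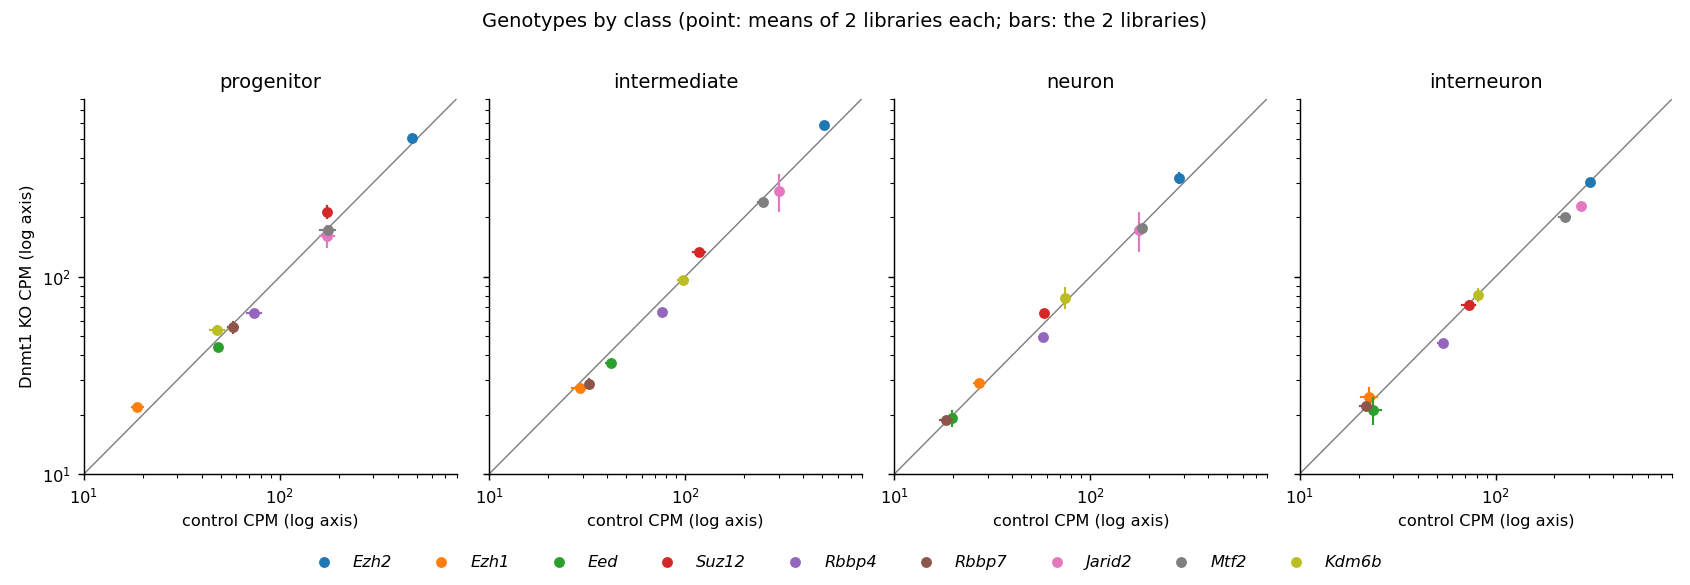
Mean CPM of 2 Dnmt1 KO libraries (vertical log axis) against mean CPM of 2 control libraries (horizontal log axis) for the 9 genes in each class. Bars span the 2 libraries of a genotype and the grey line marks equal levels. All points lie close to the line, with Suz12 in progenitors among the farthest above it.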

How the data were processed

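Raw transcript counts per barcode and gene were deposited by the authors as unfiltered matrices of a Parse Evercode single-nucleus assay on the mouse genome mm39, made with the Trailmaker pipeline. Its version, the annotation release and the use of strand and introns are not given in the sources used here. The submitters' processing notes name R 4.4.1 and Seurat 5.0.1.9001. Barcodes with 1500 to 60000 transcripts were kept, and the limit of 10% mitochondrial transcripts removed 0 of them. Nuclei were scored on 6 marker lists and put in the class with the highest score where it led by 0.2. Predicted doublets (2.96% to 7.36% per library) were kept.

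Counts were summed per library and class and tested with edgeR 4.0.16 (TMM, quasi-likelihood, filterByExpr) in R 4.3.3, with library as a term for classes and states, and with genotype alone between genotypes, using 2 libraries per genotype. DESeq2 1.42.0, other normalizations, filters and gates, and each library left out in turn were alternatives. The code was tested on simulated data. Named genes were the 9 members, Kdm6a and Uty, and from the lists of further PRC2 and PRC1 genes the 3 with the largest significant difference in each direction between progenitors and neurons. The members, markers and lists were chosen with earlier results of these data known. Coordinates are from GENCODE on GRCm39. Python 3.11.15, scanpy 1.11.5, numpy 2.4.6 and scipy 1.17.1 were used. Libraries held 75338095 to 172783347 retained transcripts.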

Additional observations from a re-analysis of the deposited data

How the results depend on the processing

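Of the alternative class differences of named genes, 497 kept direction and side of the threshold, 67 no longer passed and 10 reversed. For cell-cycle states these numbers were 326, 37 and 1. Between genotypes 122 were kept and 6 reversed. No call could be lost there, since 0 genes passed between genotypes in the main setting. In nuclei without cell-cycle transcripts, 2 members passed between progenitors and neurons (4510 of all genes, from 11948), 1 between interneurons and neurons (3233, from 6330) and 4 between progenitors and intermediates (2781, from 9222), while 4672 of all genes, from 9795, passed between intermediates and neurons. There Ezh2 reversed to -0.56 between progenitors and neurons and Suz12 to -0.26 between progenitors and intermediates. The same nuclei scaled by totals alone gave 1, 1 and 3 members in these comparisons, in the same order (4958, 3336 and 2697 of all genes), and 5867 of all genes between intermediates and neurons. Ezh2 was then at -0.19, Jarid2 at 0.29, Kdm6b at 0.17 and Phc2 at 0.016 between progenitors and neurons, and Suz12 at -0.18 between progenitors and intermediates. By totals alone, Rbbp4 was at 0.38 between progenitors and neurons and Ezh1 at 0.011 between intermediates and neurons. With a gate on marker counts, Jarid2 was at -0.030 between intermediates and neurons and at -0.19 between G2/M and S-phase intermediates. That gate gave 8 members in progenitors between G2/M and no cell-cycle transcripts, as did a gate without margin. In intermediates it gave 0 for S phase, 4 for G2/M and 1 between these states (174, 703 and 227 of all genes, from 2428, 3640 and 1170). A gate on thinned counts gave 2 for S phase and 1 between G2/M and S phase in intermediates (1374 and 486 of all genes, from 2428 and 1170). In S-phase and G2/M progenitors it gave 4920 and 5597 of all genes, from 2525 and 3162. Without an upper limit on transcripts, 1 member passed between G2/M and S-phase progenitors. Leaving out 1 library gave 0 to 2 members there, 2 to 4 for S-phase intermediates and 1 to 3 between G2/M and S-phase intermediates. Of all genes, 1065, from 1802, passed between G2/M and S-phase progenitors without Dnmt1 KO replicate 2. Without that library, 712 of all genes, from 1170, passed between G2/M and S-phase intermediates. Both alternatives in these nuclei and the scaling by totals were added after the data were seen. The cause of these changes was not tested.

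Between genotypes, 0 members passed under every alternative run. Suz12 in progenitors ranged from 0.25 to 0.41 when 1 library was left out. In interneurons, Ezh2 was at -0.0048 with a filter on mapped reads and -0.012 by totals alone, and Suz12 at -0.047 with a batch covariate and -0.020 by totals alone, with a range of -0.028 to 0.14 when 1 library was left out. Of all genes, up to 342 passed without Dnmt1 KO replicate 2 (progenitors), up to 188 without Dnmt1 KO replicate 1 (all nuclei), and up to 457 without a low-count filter (intermediates), against 0. Libraries with the same replicate number also share the Xist and Uty pattern, but no label ties them to a litter, batch or day, so they were not treated as pairs. Their deviations from the genotype means correlated at -0.13 to -0.0048, and with the replicate block 0 members and 0 of all genes passed in each population. The 2 libraries per genotype and few nuclei in some states limit the precision.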
